A study of Silurus meridionalis with 18 samples.

Results

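The olfactory bulb of the southern catfish, Silurus meridionalis, was compared with the other neural tissues of the same survey, labelled Brain, Telecephlon (the submitters' spelling) and Retina. The survey holds 18 tissues of adult fish from a benthic habitat, sequenced as poly(A) RNA with 1 library per tissue, so the comparison sets 1 library against 3 and uses 4 of the 18 libraries. All 4 libraries carry the same labels apart from the tissue: adult stage, and no treatment, strain, sex, age in years or number of fish. Levels are FPKM (fragments scaled to transcript length and to the fragments mapped in the library), and all 25390 gene models of the deposited table entered the comparison. The labels do not say whether the tissue called Brain included the telencephalon or the bulb. With 1 library per tissue no difference below has a replicate check, and no test was possible. A difference in level also cannot separate a change in the number of cells of a type from a change in RNA per cell.

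The olfactory bulb is the first relay for smell in the vertebrate brain. Axons of sensory neurons in the nose end there on mitral and tufted cells, which use glutamate and send the signal to the telencephalon, while granule and periglomerular interneurons, which use GABA and in part dopamine, shape it. In mammals many of these interneurons descend from cells of the ventral forebrain that express Dlx, Gsx and Sp8 transcription factors, and some are added throughout life.

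Each gene was set against the highest of the other neural libraries, the stricter comparison, and against the mean of their log2(FPKM + 1) values. A gene was called when the ratio of FPKM + 1 reached 4-fold, a log2 difference of 2, with an FPKM of at least 5 on the higher side. For a call lower than each, every other neural library had to reach 5 FPKM, so the counts of higher and lower models are not alike. The pseudocount of 1 makes these differences smaller than the true ratios for genes of low level. By this rule 167 gene models, or 0.658% of all models, were higher in Olfactory_bulb than in each of the other neural libraries, and 7, or 0.0276%, were lower than each. Against the mean, 373 (1.47%) were higher and 175 (0.689%) were lower. The same rule turned on the other libraries called 162 models (0.638%) higher in Brain than in each other, 122 (0.481%) in Telecephlon and 613 (2.41%) in Retina. Taken pair by pair, Olfactory_bulb had 472 models higher (1.86%) and 325 lower (1.28%) than Brain, 252 higher (0.993%) and 287 lower (1.13%) than Telecephlon, and 1199 higher (4.72%) and 830 lower (3.27%) than Retina. Olfactory_bulb thus had about as many raised models as Brain and fewer than Retina. Of the 167, Telecephlon was the nearest library, meaning the one with the next highest level, in 94, Brain in 39 and Retina in 34. Without Telecephlon the same rule called 363 models.

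**Figure D1:**
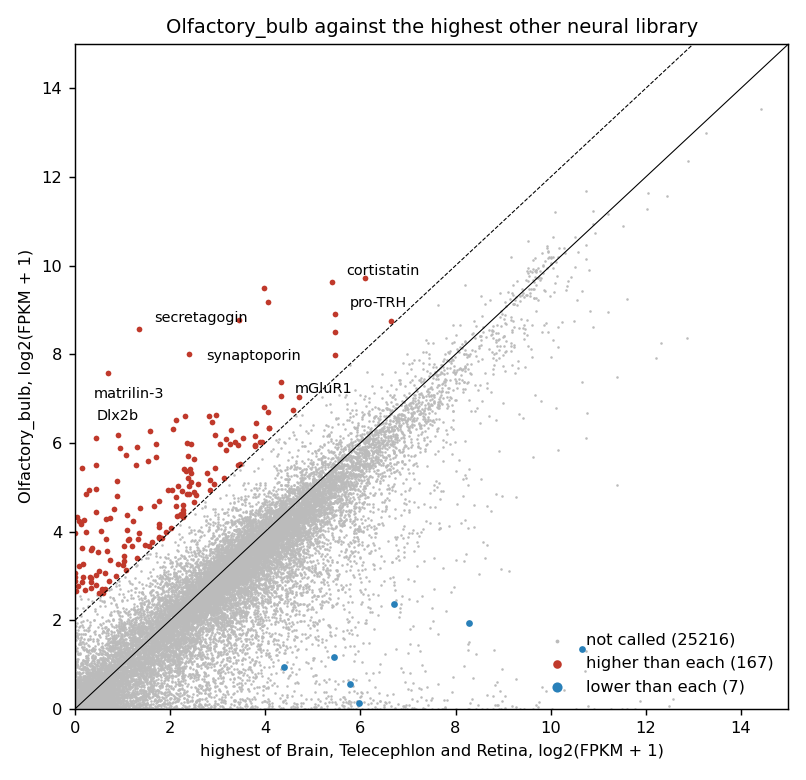
Each point is 1 of 25390 gene models, with the highest of Brain, Telecephlon and Retina on the horizontal axis and Olfactory_bulb on the vertical axis, both as log2(FPKM + 1). The solid line marks equal levels and the dashed line a 4-fold higher level in Olfactory_bulb; the 167 red points lie on or above the dashed line, and the 7 blue points are models lower than in each other library.

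The library was described by markers of its label and of the nose. These lists were drawn up with earlier results of these data known, so the values are not a separate check of the label. Of the 43 gene models on the list of olfactory bulb interneuron markers, 24 (55.8%) were highest in Olfactory_bulb among the neural libraries, against 29.9% of all gene models, and their summed level was 1949 FPKM in Olfactory_bulb against 546 in Telecephlon, 378 in Brain and 398 in Retina. Of the 17 olfactory sensory neuron models, 10 were at 1 FPKM or more in Olfactory_bulb, 0 were called higher and 1 was called lower than the mean. In a list this small these counts are near the shares of all models, 0.658% higher than each and 0.689% lower than the mean. The list summed to 110.0 FPKM in Olfactory_bulb against 192 in Telecephlon, 81.5 in Brain and 376 in Retina. Defining members were near 0. Olfactory marker protein was 0.433 FPKM in Olfactory_bulb against 0.418 in Telecephlon, 0.627 in Brain and 56.4 in Retina, the channel subunit CNGA2 was listed at 0 in Olfactory_bulb, and CNGA4 reached 0.167. The 151 models named as odorant, trace amine or vomeronasal receptors summed to 9.49 FPKM in Olfactory_bulb against 5.16 in Telecephlon, 5.63 in Brain and 6.15 in Retina. Only 1 of them reached the 5 FPKM needed for a call in any neural library. That 0 were called therefore follows from the minimum and is not a result about the receptors. One model (C0J45_06293) gave 5.23 of the FPKM in Olfactory_bulb, and without it the sums were 4.26 in Olfactory_bulb and 5.21 in Retina. Forkhead box G1, the forebrain regulator, was 35.9 FPKM in Olfactory_bulb against 45.2 in Telecephlon, 0.272 in Brain and 2.46 in Retina, so that Olfactory_bulb and Telecephlon were alike and far above Brain. Of the 44 models on the list of mid- and hindbrain and spinal regulators, 15 reached 5 FPKM in any neural library. Of the 44 models 0 were called, which in a list this small is near the share of all models. Their sum was 26.1 FPKM in Olfactory_bulb against 16.4 in Telecephlon, 174 in Brain and 84.9 in Retina. Rhodopsin (C0J45_09052) was listed at 0 in Olfactory_bulb against 34592 FPKM in Retina, and the list of phototransduction genes summed to 42.3 FPKM against 73665.

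Transcription factors of forebrain interneurons were among the 167. Of the 43 interneuron models, 11 were called higher than each other neural library and 15 higher than the mean, while 0 were lower than each and 2 were lower than the mean; over all models 0.658% were higher than each. The list's median difference from the mean was 0.91 on the log2 scale, against 0.06 over all models and 0.13 over the 13745 models that reached 5 FPKM in a neural library. The list was drawn up with earlier results of these data known, so its count describes the library and does not stand as separate support.

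The 5 called Dlx genes of the distal-less family showed the same order of tissues. These homeobox proteins specify GABA neurons of the ventral forebrain. Dlx2b (C0J45_20645, chromosome 24, 7096496 to 7097997) was 71.7 FPKM in Olfactory_bulb against 0.877 in Telecephlon, 0 in Brain and 0.04996 in Retina, a log2 difference of 5.28 from the next library. Dlx1a was 61.7 FPKM in Olfactory_bulb against 7.24 in Telecephlon, 0.0157 in Brain and 0.115 in Retina, and Dlx2a was 36.1 FPKM in Olfactory_bulb against 4.21 in Telecephlon, 0 in Brain and 0.218 in Retina. Their log2 differences from Telecephlon were 2.93 and 2.83. Dlx5a was 60.4 FPKM in Olfactory_bulb against 12.7 in Telecephlon, 0.0360 in Brain and 0.0522 in Retina and Dlx6a was 45.3 FPKM in Olfactory_bulb against 10.04 in Telecephlon, 0.0421 in Brain and 0.0615 in Retina, with log2 differences from Telecephlon of 2.17 and 2.07. In each of the 5 genes Olfactory_bulb was highest, Telecephlon second, and Brain and Retina below 1 FPKM. Outside the nervous system the same genes reached at most 38.3 FPKM, for Dlx5a in Gill.

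The other regulators of this lineage followed that order less uniformly. GS homeobox 2, which in mice patterns the progenitors of bulb interneurons, was 61.1 FPKM in Olfactory_bulb against 12.7 in Telecephlon, 8.62 in Brain and 4.60 in Retina, so that every neural library carried some of it. Sp8, a zinc-finger factor that marks periglomerular and granule cells in mice, has a pair of models. The first (C0J45_04006) was 77.9 FPKM in Olfactory_bulb against 3.19 in Telecephlon, 2.15 in Brain and 0 in Retina, and the second (C0J45_19654) was 51.5 FPKM in Olfactory_bulb against 4.20 in Telecephlon, 0.689 in Brain and 0.114 in Retina. Both were called higher than each other library, by 4.24 and 3.34 on the log2 scale. Its relative Sp9 was 71.5 FPKM in Olfactory_bulb against 23.3 in Telecephlon, 0.6999 in Brain and 0.0473 in Retina; because Telecephlon also held it, its difference of 1.58 passed the threshold against the mean and not against the highest. Of the other members, the ETS factor Etv1 at 47.3 FPKM in Olfactory_bulb against 24.2 in Telecephlon, 4.17 in Brain and 4.15 in Retina behaved like Sp9, with a difference from the mean of 2.46 and from the highest of 0.94.

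**Figure D2:**
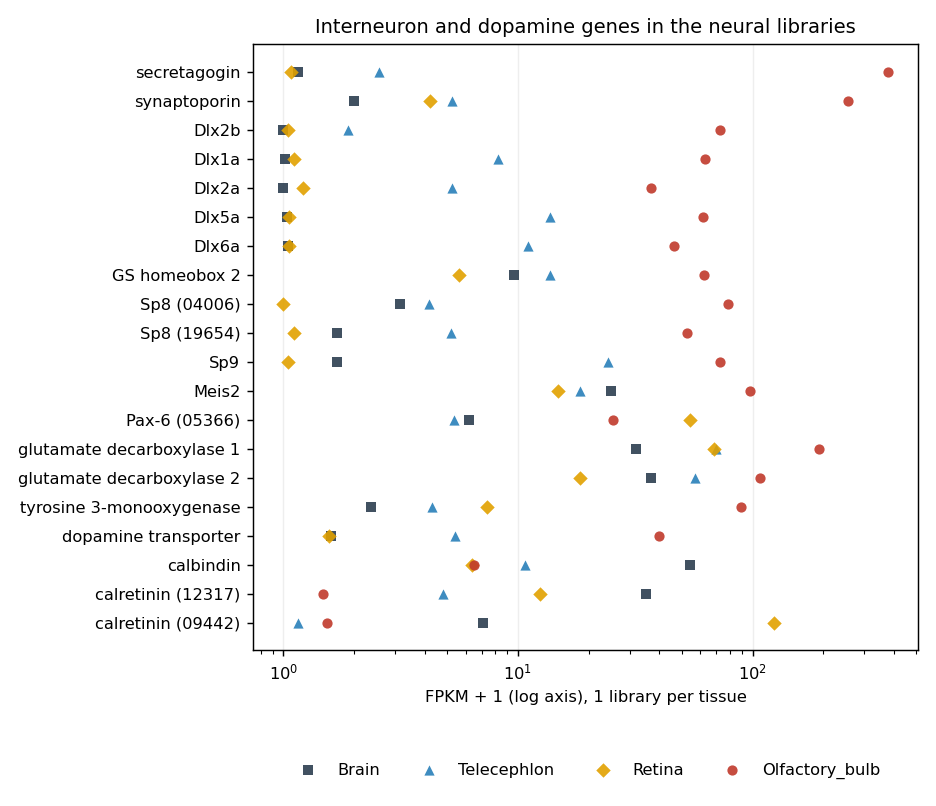
FPKM + 1 on a log axis for 20 gene models of bulb interneurons and dopamine neurons, 1 point per library and no error bars because each tissue is 1 library. Red circles (Olfactory_bulb) lie to the right for secretagogin, synaptoporin, the Dlx and Sp8 genes and tyrosine 3-monooxygenase, and are leftmost for the calretinin model C0J45_12317.

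The markers of mature interneurons split in direction. Synaptoporin (C0J45_00631, chromosome 1, 19027404 to 19029022, plus strand), a synaptic vesicle protein that marks granule cells in rodents, was 255 FPKM in Olfactory_bulb against 4.23 in Telecephlon, 1.01 in Brain and 3.20 in Retina, and its log2 difference from Telecephlon was 5.61. Secretagogin (C0J45_10141), a calcium sensor of granule and periglomerular cells in mammals, was 378 FPKM in Olfactory_bulb against 1.55 in Telecephlon, 0.152 in Brain and 0.0776 in Retina, and had the largest difference of all, 7.22 above Telecephlon. Its other model (C0J45_03926) went the opposite way, at 1.47 FPKM in Olfactory_bulb against 60.98 in Telecephlon, 4.47 in Brain and 1.74 in Retina. That copy was highest in Telecephlon, and its Olfactory_bulb level was near Retina and below Brain. Calbindin and calretinin were not raised. Calbindin was 5.52 FPKM in Olfactory_bulb against 9.69 in Telecephlon, 53.2 in Brain and 5.36 in Retina, with Brain highest. The calretinin models were 0.470 FPKM in Olfactory_bulb against 3.79 in Telecephlon, 33.98 in Brain and 11.4 in Retina for C0J45_12317 and 0.527 FPKM in Olfactory_bulb against 0.150 in Telecephlon, 6.10 in Brain and 122 in Retina for C0J45_09442. Both calretinins were lower than the mean of the other libraries, by -3.12 and -2.71 on the log2 scale, although calretinin is abundant in bulb interneurons of mammals.

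Genes of GABA synthesis were highest in Olfactory_bulb without reaching 4-fold. Glutamate decarboxylase 1 (C0J45_00895), which makes GABA, was 192 FPKM in Olfactory_bulb against 68.9 in Telecephlon, 30.99 in Brain and 67.3 in Retina. Glutamate decarboxylase 2 was 107 FPKM in Olfactory_bulb against 55.8 in Telecephlon, 35.8 in Brain and 17.5 in Retina, and the vesicular GABA transporter was 113 FPKM in Olfactory_bulb against 68.4 in Telecephlon, 55.6 in Brain and 20.9 in Retina. Their log2 differences from the next library were 1.46, 0.92 and 0.71, and all are below the threshold of 2. A further decarboxylase 1-like model (C0J45_02959) was highest in Brain, at 14.5 FPKM in Olfactory_bulb against 26.6 in Telecephlon, 30.3 in Brain and 1.55 in Retina. On the receiving side, 0 of the 30 models on the GABA and glycine receptor list were called higher and 1 was called lower than the mean. Over all models 0.658% were higher than each, 1.47% higher than the mean and 0.689% lower than the mean. In a list of this size the counts are near those shares. The list summed to 356 FPKM in Olfactory_bulb against 811 in Telecephlon, 216 in Brain and 334 in Retina, with Telecephlon highest. The list's median difference from the mean was -0.31, which turned to 0.52 when Telecephlon was left out.

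Dopamine genes were raised at the enzyme and transporter that define the neurons. Tyrosine 3-monooxygenase (C0J45_09951, chromosome 10, 14110650 to 14116731), the rate-limiting enzyme of dopamine synthesis also called tyrosine hydroxylase, was 87.9 FPKM in Olfactory_bulb against 3.30 in Telecephlon, 1.36 in Brain and 6.36 in Retina. The sodium-dependent dopamine transporter (C0J45_03909), which returns dopamine to the cell, was 38.9 FPKM in Olfactory_bulb against 4.40 in Telecephlon, 0.603 in Brain and 0.566 in Retina. Both were called higher than each other neural library, with log2 differences of 3.59 from Retina and 2.88 from Telecephlon. These were the only calls among the list's 18 models (11.1%, against 0.658% of all models). Head_kidney, where the enzyme serves adrenaline synthesis, had 21.8 FPKM of the enzyme and the highest level of any tissue outside the neural group.

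The steps shared with other amines were not confined to the bulb. Aromatic-L-amino-acid decarboxylase, which makes dopamine from L-DOPA, was 19.6 FPKM in Olfactory_bulb against 6.97 in Telecephlon, 0.556 in Brain and 115 in Retina, with Retina highest. The vesicular amine transporter was 7.40 FPKM in Olfactory_bulb against 7.35 in Telecephlon, 3.87 in Brain and 1.93 in Retina, level between Olfactory_bulb and Telecephlon. GTP cyclohydrolase 1, which supplies the cofactor of tyrosine hydroxylase and was chosen after its values were seen, was 10.4 FPKM in Olfactory_bulb against 2.02 in Telecephlon, 0.831 in Brain and 4.75 in Retina, a difference of 0.99. The median difference of the list was 0.32 and fell to -0.018 without Brain and to -0.048 without Telecephlon, so no direction is given for the list as a whole.

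Neuropeptide precursors differed in both directions. Of the 40 models on the list, 3 were called higher than each other library, 6 higher than the mean and 6 lower than the mean. Over all models these shares were 0.658%, 1.47% and 0.689%. The summed level was 1917 FPKM in Olfactory_bulb against 2098 in Telecephlon, 353 in Brain and 267 in Retina, so Olfactory_bulb and Telecephlon were near each other in total while their leading peptides differed.

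Cortistatin and somatostatin, 2 related peptides that act on the same receptor family, stood in opposite order. Cortistatin (C0J45_14423, chromosome 16, 4814315 to 4814999, minus strand) was 794 FPKM in Olfactory_bulb against 12.5 in Telecephlon, 41.3 in Brain and 15.9 in Retina, a log2 difference of 4.23 from Brain. Somatostatin (C0J45_11186) was listed at 0 in Olfactory_bulb and was 1037 FPKM in Telecephlon, 7.46 in Brain and 4.94 in Retina. A second somatostatin model (C0J45_06305) was also listed at 0 in Olfactory_bulb. The bulb was thus highest of the neural libraries for cortistatin and lowest for somatostatin.

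The thyrotropin-releasing hormone precursor (C0J45_09026), known in the hypothalamus as the head of the thyroid axis, was 477 FPKM in Olfactory_bulb against 43.2 in Telecephlon, 5.58 in Brain and 17.7 in Retina, with a difference of 3.43 from Telecephlon. A cocaine- and amphetamine-regulated transcript (CART) model (C0J45_21801) was 253 FPKM in Olfactory_bulb against 13.9 in Telecephlon, 4.40 in Brain and 43.2 in Retina, 2.52 above Retina. CART peptides act on feeding and arousal, and another CART model, called against the mean (C0J45_05261), had its highest level in Telecephlon, at 89.5 FPKM in Olfactory_bulb against 169.6 in Telecephlon, 9.35 in Brain and 2.09 in Retina. Protachykinin-1, the precursor of substance P, was 115 FPKM in Olfactory_bulb against 37.5 in Telecephlon, 27.6 in Brain and 3.03 in Retina, and tachykinin 3a was 18.2 FPKM in Olfactory_bulb against 0.730 in Telecephlon, 2.77 in Brain and 12.5 in Retina. Both of these were highest in Olfactory_bulb and were called against the mean, by 2.82 and 2.11, and not against the highest library.

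Other peptides were nearly absent from the bulb. Pituitary adenylate cyclase-activating polypeptide (PACAP) was 1.47 FPKM in Olfactory_bulb against 152 in Telecephlon, 63.1 in Brain and 4.92 in Retina, -3.97 below the mean. The proenkephalin-A models diverged: C0J45_17484 was 0.125 FPKM in Olfactory_bulb against 6.11 in Telecephlon, 15.8 in Brain and 1.24 in Retina, whereas C0J45_06012, which passed no threshold, was 53.9 FPKM in Olfactory_bulb against 103 in Telecephlon, 3.77 in Brain and 27.1 in Retina. Proenkephalin-B, the precursor of dynorphins, was 0.172 FPKM in Olfactory_bulb against 10.5 in Telecephlon, 1.66 in Brain and 10.01 in Retina. C-type natriuretic peptide (C0J45_08705) was 0.238 FPKM in Olfactory_bulb against 0.0754 in Telecephlon, 92.7 in Brain and 11.8 in Retina, with Brain far above the rest, and corticoliberin (C0J45_18158) was 0.494 FPKM in Olfactory_bulb against 7.41 in Telecephlon, 3.32 in Brain and 7.21 in Retina.

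**Figure D3:**
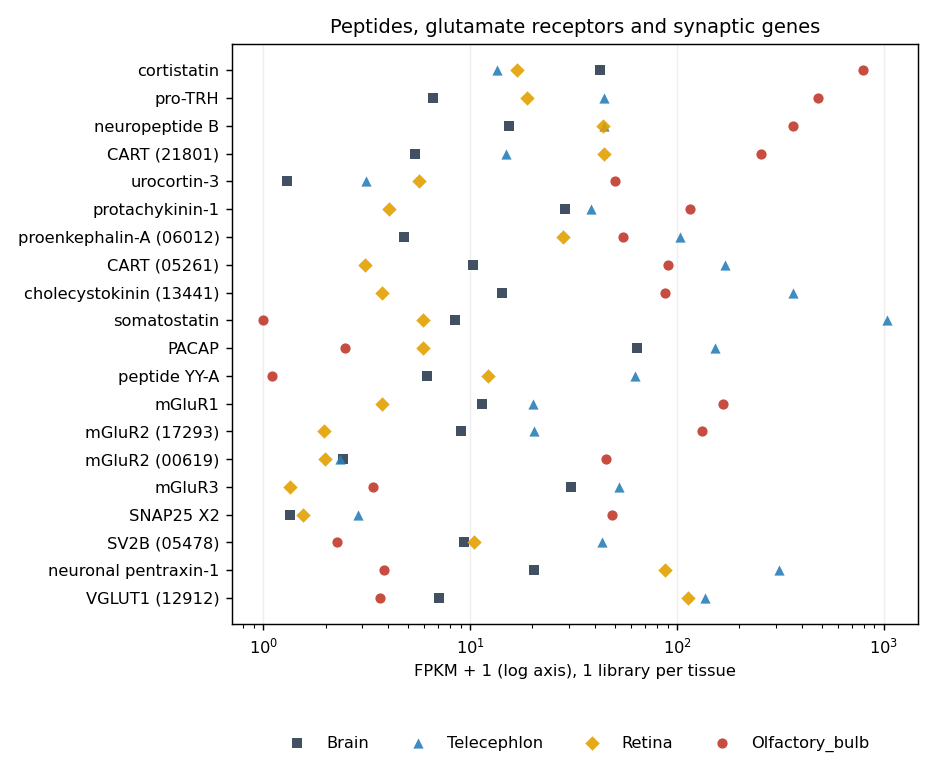
FPKM + 1 on a log axis for 20 gene models of neuropeptides, glutamate receptors and synaptic proteins in the neural libraries, 1 point per library. Cortistatin, pro-TRH, neuropeptide B and the metabotropic receptors 1 and 2 have their highest point in Olfactory_bulb, whereas somatostatin, PACAP, peptide YY-A and neuronal pentraxin-1 have their lowest there.

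Metabotropic glutamate receptors of types 1 and 2 were raised. These receptors couple glutamate to G proteins, and in mammals the type 1 receptor is strong on mitral cells. Type 1 (C0J45_16501, chromosome 18, 17719351 to 17733955) was 165 FPKM in Olfactory_bulb against 19 in Telecephlon, 10.4 in Brain and 2.73 in Retina. Type 2 has a pair of models: C0J45_17293 was 131 FPKM in Olfactory_bulb against 19.2 in Telecephlon, 8.04 in Brain and 0.966 in Retina and C0J45_00619 was 44.1 FPKM in Olfactory_bulb against 1.34 in Telecephlon, 1.42 in Brain and 0.990 in Retina. All 3 were called higher than each other library, by 3.05, 2.71 and 4.22 on the log2 scale, among 47 models of the list (6.38%, against 0.658% of all models). The next models, of types 1 and 3, were chosen after their values were seen. The other type 1 model (C0J45_08100) was 0.373 FPKM in Olfactory_bulb against 0.293 in Telecephlon, 11.4 in Brain and 0.579 in Retina, so the copies had different tissues: one was high in Olfactory_bulb and the other in Brain. Type 3 (C0J45_12131) was 2.41 FPKM in Olfactory_bulb against 51.5 in Telecephlon, 29.7 in Brain and 0.348 in Retina, lower than both Brain and Telecephlon.

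A further 5 glutamate receptor models were called against the mean only. The AMPA receptor subunit 1b was 79.3 FPKM in Olfactory_bulb against 57.96 in Telecephlon, 9.34 in Brain and 2.37 in Retina, subunit 2a was 41.3 FPKM in Olfactory_bulb against 30.1 in Telecephlon, 7.52 in Brain and 2.26 in Retina, and the other subunit 2 model was 85.1 FPKM in Olfactory_bulb against 149.8 in Telecephlon, 21.5 in Brain and 1.72 in Retina. Type 5 metabotropic receptor (C0J45_11153) was 20.5 FPKM in Olfactory_bulb against 11.98 in Telecephlon, 1.79 in Brain and 0.475 in Retina, and the kainate receptor 2 model (C0J45_16400) was 43.2 FPKM in Olfactory_bulb against 17.2 in Telecephlon, 10.7 in Brain and 1.58 in Retina. In these 5, Olfactory_bulb and Telecephlon were both high and Retina lowest. The list's median difference was 0.67, and without Retina it turned to -0.090, so the list is not raised against Brain and Telecephlon alone.

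Synaptic vesicle and release genes gave calls both ways. Of 45 models, 1 was higher than each other library, 1 was lower than each, 5 were higher than the mean and 5 lower. Over all models these shares were 0.658%, 0.0276%, 1.47% and 0.689%. The model called higher is a SNAP25 copy (isoform X2, C0J45_11493), a protein of the membrane fusion machinery, at 47.4 FPKM in Olfactory_bulb against 1.88 in Telecephlon, 0.345 in Brain and 0.555 in Retina. It was 4.07 above Telecephlon, while the abundant SNAP25-A model was 744 FPKM in Olfactory_bulb against 1302 in Telecephlon, 652 in Brain and 294 in Retina and SNAP25-B was 11.9 FPKM in Olfactory_bulb against 130.1 in Telecephlon, 13.1 in Brain and 403 in Retina. The bulb copy was therefore a minor part of SNAP25 in that library. Syntaxin-1A, its partner on the cell membrane, was 108 FPKM in Olfactory_bulb against 51.95 in Telecephlon, 10.9 in Brain and 2.53 in Retina, and synapsin-2, which tethers vesicles, was 262 FPKM in Olfactory_bulb against 166 in Telecephlon, 47.4 in Brain and 12.2 in Retina. Unc-13 homolog A, which primes vesicles for release, was 37.7 FPKM in Olfactory_bulb against 21.1 in Telecephlon, 4.50 in Brain and 2.38 in Retina. Synaptotagmin-2-like, a calcium sensor for release, was 4.31 FPKM in Olfactory_bulb against 14.2 in Telecephlon, 64.7 in Brain and 9.41 in Retina, with Brain highest.

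Markers of projection neurons were present, with 0 called higher. T-box 21, a mitral and tufted cell factor in mice, was 5.16 FPKM in Olfactory_bulb against 1.67 in Telecephlon, 1.48 in Brain and 1.19 in Retina; the bulb was highest, by 1.21. T-box brain protein 1 (C0J45_09346) was 10.3 FPKM in Olfactory_bulb against 12 in Telecephlon, 0.219 in Brain and 0.563 in Retina, and eomesodermin, a related factor of glutamate neurons, was 16.4 FPKM in Olfactory_bulb against 76.98 in Telecephlon, 10.9 in Brain and 1.16 in Retina. Vesicular glutamate transporter 2.1 was 20.2 FPKM in Olfactory_bulb against 57.1 in Telecephlon, 50.2 in Brain and 11.7 in Retina, 2.2 was 16.1 FPKM in Olfactory_bulb against 61.3 in Telecephlon, 5.12 in Brain and 0.00693 in Retina, and transporter 1 (C0J45_12912) was 2.65 FPKM in Olfactory_bulb against 136 in Telecephlon, 6.05 in Brain and 113 in Retina. Of the 23 models on the list 0 were called higher, 1 was lower than each and 3 were lower than the mean. Over all models 0.658% were higher than each, 0.0276% lower than each and 0.689% lower than the mean. In a list this small, 0 higher is near the share of all models. The list summed to 616 FPKM in Olfactory_bulb against 1773 in Telecephlon, 524 in Brain and 763 in Retina. Its median of 0.45 turned to -0.10 without Brain, -0.11 without Retina and -0.64 against the arithmetic mean, so no direction is given.

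Factors of the dorsal telencephalon differed in direction. Of the 28 models on the list of pallial and telencephalic regulators, 3 were called higher than the mean and 4 lower. Over all models these shares were 1.47% and 0.689%. The list summed to 263 FPKM in Olfactory_bulb against 765 in Telecephlon, 217 in Brain and 152 in Retina. Empty spiracles homeobox 1, which patterns the dorsal forebrain, was 14.4 FPKM in Olfactory_bulb against 3.57 in Telecephlon, a log2 difference of 1.75. It was listed at 0 in Brain and Retina and was called against the mean. Its highest level of all tissues was 25.97 FPKM in Kidney. Homeobox 3 of the same family was 8.88 FPKM in Olfactory_bulb against 9.49 in Telecephlon, 0.0890 in Brain and 0 in Retina, equal in Olfactory_bulb and Telecephlon to within -0.09 on the log2 scale. The neurogenic factors were lower. Neurod6-A was 0.382 FPKM in Olfactory_bulb against 149.6 in Telecephlon, 8.05 in Brain and 0.428 in Retina, neurod6-B was 1.56 FPKM in Olfactory_bulb against 106 in Telecephlon, 3.94 in Brain and 6.62 in Retina and the class E factor 22 was 0.359 FPKM in Olfactory_bulb against 154 in Telecephlon, 2.40 in Brain and 13.2 in Retina. These factors belong to pallial glutamate neurons in mammals, and each had its highest level in Telecephlon and under 2 FPKM in Olfactory_bulb. Neurod2 was 0.0445 FPKM in Olfactory_bulb against 98.7 in Telecephlon, 5.54 in Brain and 3.14 in Retina and neurod1 was 0.962 FPKM in Olfactory_bulb against 11.7 in Telecephlon, 5.84 in Brain and 288 in Retina. The 27 models on the list of newborn neuron markers were mixed, with 2 called higher than the mean and 3 lower. Over all models 1.47% were higher and 0.689% lower. The list summed to 1395 FPKM in Olfactory_bulb against 2997 in Telecephlon, 2391 in Brain and 1437 in Retina. Its median difference was -0.06. The 2 called higher were helix-loop-helix protein 2 (C0J45_02690) and insulinoma-associated protein 1a. The first was 12.5 FPKM in Olfactory_bulb against 0.124 in Telecephlon, 1.38 in Brain and 4.87 in Retina. The second was 8.40 FPKM in Olfactory_bulb against 3.58 in Telecephlon, 0.660 in Brain and 0.598 in Retina. The sums of cell division genes were level, at 81.4 FPKM in Olfactory_bulb against 82.5 in Telecephlon, 83.4 in Brain and 88.3 in Retina. Of these 26 models 0 were called, but only 4 reached the 5 FPKM minimum in any neural library.

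By the call that needs 5 FPKM in every other neural library, 7 models were lower in Olfactory_bulb than in each. Neuronal pentraxin-1 (C0J45_00044), which gathers AMPA receptors at synapses, was 2.82 FPKM in Olfactory_bulb against 310.1 in Telecephlon, 19.4 in Brain and 86.7 in Retina, -2.42 from the lowest of the others. Peptide YY-A was 0.101 FPKM in Olfactory_bulb against 61.9 in Telecephlon, 5.17 in Brain and 11.2 in Retina, and secretogranin-1, a protein of peptide granules, was 0.479 FPKM in Olfactory_bulb against 53.8 in Telecephlon, 17.4 in Brain and 8.20 in Retina. Synaptic vesicle glycoprotein 2B (C0J45_05478) was 1.26 FPKM in Olfactory_bulb against 42.4 in Telecephlon, 8.35 in Brain and 9.48 in Retina. In these 4 Telecephlon was highest. Retinol-binding protein 4, which carries vitamin A, was 4.12 FPKM in Olfactory_bulb against 26.5 in Telecephlon, 104 in Brain and 54.1 in Retina. Hyaluronan and proteoglycan link protein 1, a component of the matrix around neurons, was 0.909 FPKM in Olfactory_bulb against 14.7 in Telecephlon, 11.01 in Brain and 20.1 in Retina. The last is a hypothetical protein (C0J45_19644) at 1.54 FPKM in Olfactory_bulb against 52.7 in Telecephlon, 1619.7 in Brain and 26.4 in Retina, the largest difference from the highest library among the 7. Their log2 differences from the lowest of the others ran from -3.43 to -2.05, and the count moved between 1 and 46 under the settings tried.

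The summed level of myelin genes in Olfactory_bulb was near that of Telecephlon, far below Brain and above Retina. The summed level of 28 myelin and oligodendrocyte models was 1052 FPKM in Olfactory_bulb against 1382 in Telecephlon, 17567 in Brain and 377 in Retina. Of these models 0 were called higher or lower than each, against 0.658% and 0.0276% of all models. Myelin basic protein (C0J45_18875) was 328 FPKM in Olfactory_bulb against 455 in Telecephlon, 7447 in Brain and 22.8 in Retina, and myelin protein P0 was 241 FPKM in Olfactory_bulb against 324 in Telecephlon, 4768 in Brain and 116 in Retina. Brain stood far above every other library in both. The median difference of the list, -0.24, turned to 0.35 without Brain. One relative of the myelin-associated glycoprotein (C0J45_11648) was called higher than the mean, at 24.9 FPKM in Olfactory_bulb against 9.74 in Telecephlon, 5.56 in Brain and 2.34 in Retina, and its highest level of all tissues was 55.7 FPKM in Spleen.

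S100-B, a calcium-binding protein of astrocytes and ensheathing glia, was 1262 FPKM in Olfactory_bulb against 431 in Telecephlon, 1518 in Brain and 33.7 in Retina, 2.16 above the mean, with Brain and Olfactory_bulb alike. Glial fibrillary acidic protein was 99.2 FPKM in Olfactory_bulb against 70.2 in Telecephlon, 648 in Brain and 24.6 in Retina and brain fatty acid binding protein 7a was 3049.8 FPKM in Olfactory_bulb against 2445 in Telecephlon, 5549 in Brain and 1008 in Retina. The receptor erbB-3b, which receives neuregulin in glia of peripheral nerve, was 12.2 FPKM in Olfactory_bulb against 0.763 in Telecephlon, 4.81 in Brain and 0.533 in Retina, highest in Olfactory_bulb and 2.40 above the mean. Early growth response 2a, a factor of Schwann cell myelination, was 17.8 FPKM in Olfactory_bulb against 38.5 in Telecephlon, 0.804 in Brain and 0.0389 in Retina, and peripheral myelin protein 22 (C0J45_07395) was 2.48 FPKM in Olfactory_bulb against 1.58 in Telecephlon, 131 in Brain and 20.5 in Retina. The markers of ensheathing glia thus gave 3 calls above the mean and 1 below among 27 models, against 1.47% and 0.689% of all models. The factor that defines the lineage, sox10, was 11.3 FPKM in Olfactory_bulb against 11.7 in Telecephlon, 50.8 in Brain and 22.8 in Retina. Among the radial glia and astrocyte models 0 of 41 were called against each library, and the same holds for 0 of 32 models of endothelium and pericytes, 0 of 33 of motile cilia and 0 of 18 of choroid plexus and brain fluid proteins. Over all models 0.658% were higher and 0.0276% lower than each library, so 0 in lists this small is near that share. The endothelium and pericyte sum was 648 FPKM in Olfactory_bulb against 479 in Telecephlon, 687 in Brain and 1259.6 in Retina, with Retina highest, and the endothelial cadherin-5 was 12.1 FPKM in Olfactory_bulb against 6.42 in Telecephlon, 13.4 in Brain and 8.63 in Retina.

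Antibody and T-cell receptor chains made up 23 of the 167. These models were grouped after their values were seen, and near-identical copies may have shared fragments, so the level of a single chain is uncertain. Of 188 immunoglobulin and T-cell receptor models, 23 (12.2%, against 0.658% of all models) were called higher than each other neural library and 0 were lower. Of the 188, 128 (68.1%, against 29.9% of all models) were highest in Olfactory_bulb. Only 50 of the 188 reached 5 FPKM in any neural library and 87 reached 1 FPKM in Olfactory_bulb, so some of the 128 ranks are among values near 0. The summed level was 3141 FPKM in Olfactory_bulb against 299 in Telecephlon, 62.8 in Brain and 202 in Retina, and the highest of the other tissues was 8660.5 FPKM in Head_kidney, a blood-forming organ of fish. An Ig heavy chain V region model (C0J45_13436) was 837 FPKM in Olfactory_bulb against 67.1 in Telecephlon, 3.77 in Brain and 43.4 in Retina, with 2452 in Head_kidney.

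Some light chains were also above the lymphoid tissues. The lambda-1 light chain-like model C0J45_10126 was 718 FPKM in Olfactory_bulb against 14.7 in Telecephlon, 0.0562 in Brain and 3.28 in Retina, and its level in Head_kidney was 41.4. The model C0J45_10113 was 579.9 FPKM in Olfactory_bulb against 15.6 in Telecephlon, 0.0256 in Brain and 0.0198 in Retina, with 40.5 in Head_kidney, and C0J45_10107 was 18.9 FPKM in Olfactory_bulb against 0 in Telecephlon, 0.0270 in Brain and 0 in Retina, with 9.69. In all 3 the single Olfactory_bulb library was the highest of the 18.

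Other white blood cell genes were mostly highest in Olfactory_bulb by less than the 4-fold threshold. Of 35 leukocyte and microglia models, 26 (74.3%, against 29.9% of all models) were highest in Olfactory_bulb, and the list's median difference from the mean was 1.14. Of the same models 0 were called higher than each other neural library and 1 higher than the mean. The shares over all models were 0.658% and 1.47%, so in a list of this size these counts are near the share of all models. The sums were 7927 FPKM in Olfactory_bulb against 2949 in Telecephlon, 3937 in Brain and 1366 in Retina, with 13572 in Spleen. The phosphatase CD45, present on all white blood cells, was 54.4 FPKM in Olfactory_bulb against 21.5 in Telecephlon, 20.8 in Brain and 8.32 in Retina, and the invariant chain CD74 of antigen presentation was 2353 FPKM in Olfactory_bulb against 1092 in Telecephlon, 1074 in Brain and 376 in Retina. CD79b, part of the B-cell receptor and chosen after its values were seen, was 6.96 FPKM in Olfactory_bulb against 1.39 in Telecephlon, 1.80 in Brain and 3.25 in Retina. Apolipoprotein Eb, which microglia and other glia make in fish, was 3299 FPKM in Olfactory_bulb against 808 in Telecephlon, 1715 in Brain and 354 in Retina; it was the model called against the mean.

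Some chemokines, the signals that draw white blood cells, were called, in a list made after the values were seen. Of 29 models 4 were called higher than each neural library, 8 higher than the mean, and the median difference was 1.58. Over all models the shares called were 0.658% and 1.47%. CXCL13, which attracts B cells, was 111 FPKM in Olfactory_bulb against 14.8 in Telecephlon, 0.0426 in Brain and 0.793 in Retina, a difference of 2.83; Intestine had 124. CCL19b, which attracts T cells, was 7.38 FPKM in Olfactory_bulb against 0.554 in Telecephlon, 0 in Brain and 0 in Retina, the CCL20-like model was 13.2 FPKM in Olfactory_bulb against 0.281 in Telecephlon, 0.287 in Brain and 1.21 in Retina and CCL-C25a was 5.83 FPKM in Olfactory_bulb against 0 in Telecephlon, 0 in Brain and 0.0408 in Retina. Hemoglobin and other red blood cell models summed to 1240.1 FPKM in Olfactory_bulb against 1309 in Telecephlon, 6042 in Brain and 3518 in Retina. Olfactory_bulb was thus near Telecephlon and below Brain and Retina. The part of white blood cells in the other differences was not tested.

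**Figure D4:**
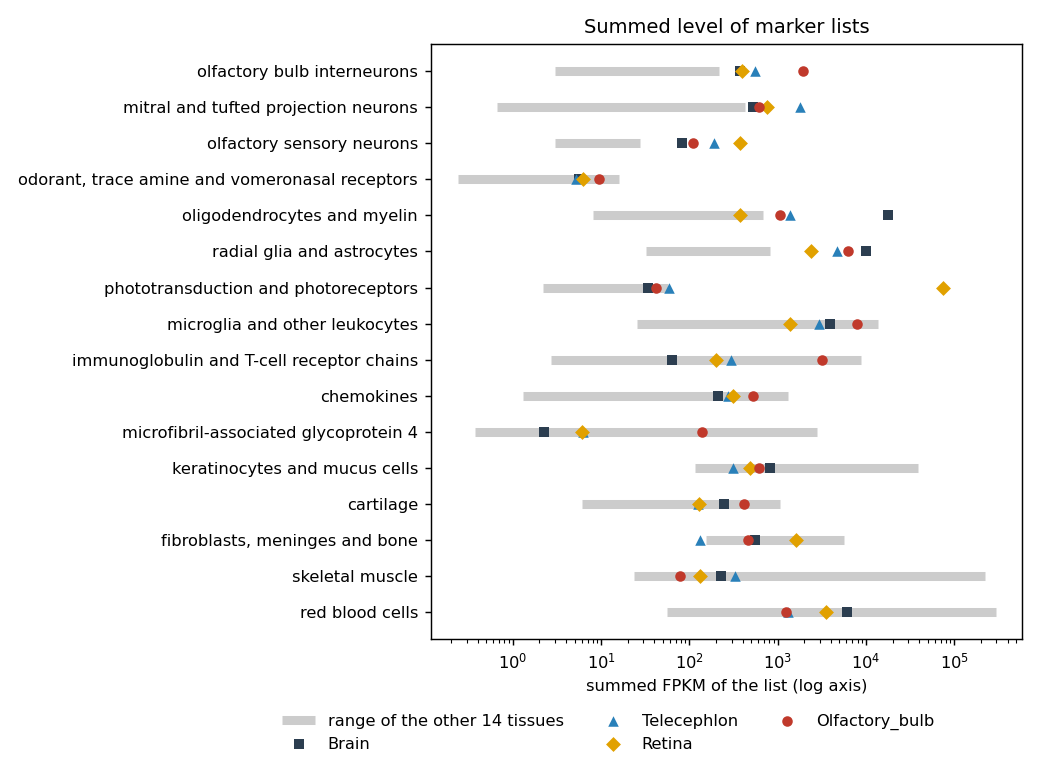
Summed FPKM of 16 marker lists on a log axis in the neural libraries, with the range of the other 14 tissues as a grey bar. Olfactory_bulb is the highest neural library for interneurons, odorant and related receptors, leukocytes, antibody chains, chemokines, microfibril-associated glycoprotein 4 and cartilage. It lies within the grey range for all of these but the interneurons. Without the 1 model highest in the bulb, Retina leads for the receptors, Brain for cartilage and Olfactory_bulb for keratinocytes and mucus cells.

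Single matrix proteins were raised while most of their lists were not. Matrilin-3 (C0J45_01898), a protein of cartilage matrix in mammals, was 191 FPKM in Olfactory_bulb against 0.613 in Telecephlon, 0.270 in Brain and 0.0379 in Retina and had the second largest difference, 6.89 above Telecephlon, whereas the cartilage genes collagen alpha-1(II) at 1.24 FPKM in Olfactory_bulb against 1.32 in Telecephlon, 1.43 in Brain and 9.20 in Retina and cartilage matrix protein at 1.73 FPKM in Olfactory_bulb against 2.65 in Telecephlon, 1.52 in Brain and 3.19 in Retina were low in every neural library. A pair of adjacent models annotated as collagen alpha-2(V), which helps to set the width of collagen fibrils, was 90.9 FPKM in Olfactory_bulb against 3.33 in Telecephlon, 1.27 in Brain and 0.935 in Retina for C0J45_00086 and 61.9 FPKM in Olfactory_bulb against 2.23 in Telecephlon, 0.782 in Brain and 0.175 in Retina for C0J45_00087. They lie on chromosome 1 from 1644284 to 1673726 and may be parts of 1 gene. Fibrillar collagen alpha-1(I) (C0J45_13027) was 34.2 FPKM in Olfactory_bulb against 8.31 in Telecephlon, 45.1 in Brain and 190.2 in Retina, with Retina highest. The collagen alpha-1(XI) model C0J45_04542 was 13.6 FPKM in Olfactory_bulb against 1.44 in Telecephlon, 0.908 in Brain and 2.42 in Retina. Another model of that chain (C0J45_04543) was 19.7 FPKM in Olfactory_bulb against 1.92 in Telecephlon, 1.91 in Brain and 6.74 in Retina. It passed 4-fold against Brain and Telecephlon and not against Retina. Without matrilin-3 the cartilage sum was 221 FPKM in Olfactory_bulb and 245 in Brain. Of the 32 cartilage models 2 were called higher and 1 lower than each library, and of the 32 fibroblast, meninges and bone models 2 were called higher. Over all models 0.658% were higher and 0.0276% lower than each library.

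The microfibril-associated glycoprotein 4 models, secreted proteins with a fibrinogen-like domain that were grouped after their values were seen, gave 6 calls among 16 (37.5%, against 0.658% of all models). Of the 16 models, 6 reached 5 FPKM in any neural library. In 1 run on chromosome 22 lay 4 of the called models, so the calls are not separate counts of loci. C0J45_18964 was 42.3 FPKM in Olfactory_bulb against 0.108 in Telecephlon, 0.0295 in Brain and 0 in Retina, C0J45_18965 was 29.5 FPKM in Olfactory_bulb against 0.0555 in Telecephlon, 0.0430 in Brain and 0.232 in Retina and C0J45_18966 was 27.95 FPKM in Olfactory_bulb against 0.168 in Telecephlon, 0 in Brain and 0 in Retina. Their highest levels in other tissues were 509, 1158 and 4.11 FPKM, each in Gill. The first 2 were thus minor in the bulb by comparison with Gill, and the third was highest in the bulb. These 3 lie side by side on chromosome 22, between 9116872 and 9139256, and fragments may have been shared among them.

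Secreted signals of the BMP and Wnt families included 3 called genes. Noggin-3, which binds and blocks BMPs, was 95.8 FPKM in Olfactory_bulb against 3.98 in Telecephlon, 3.15 in Brain and 2.26 in Retina (C0J45_07250, chromosome 7, 14679211 to 14679885), 4.28 above Telecephlon. BMP4 was 17.9 FPKM in Olfactory_bulb against 1.32 in Telecephlon, 0.8996 in Brain and 1.33 in Retina and Wnt-4a was 22.8 FPKM in Olfactory_bulb against 2.18 in Telecephlon, 0.687 in Brain and 0.405 in Retina; both were called higher than each library. These were the 3 calls among 40 noggin, BMP and Wnt models (7.5%, against 0.658% of all models). That list was made after values were seen, and its median difference was 0.29. Ephrin-B2a, a membrane-bound guidance cue, was 70.2 FPKM in Olfactory_bulb against 12.5 in Telecephlon, 3.45 in Brain and 12.7 in Retina. It was the 1 model of 111 guidance and adhesion models (0.901%) called against each library, a count near the 0.658% of all models.

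A few epithelial genes were detected. Anterior gradient 2, which folds mucins in mucus cells, was 34.1 FPKM in Olfactory_bulb against 0.837 in Telecephlon, 0.0787 in Brain and 0.134 in Retina, and the epithelial cell adhesion molecule was 26.9 FPKM in Olfactory_bulb against 0.836 in Telecephlon, 0.255 in Brain and 0.249 in Retina. Claudin-4-like was 14.6 FPKM and listed at 0 in the other neural libraries, and claudin-7-B was 6.92 FPKM in Olfactory_bulb against 0.308 in Telecephlon, 0.0784 in Brain and 0.809 in Retina. Keratin 4 (C0J45_00982) was 13.2 FPKM in Olfactory_bulb against 3.60 in Telecephlon, 0.595 in Brain and 1.60 in Retina, called against the mean. All but claudin-4-like were far higher at the body surface: keratin 4 reached 26435 FPKM in Maxillary_barbel, the adhesion molecule 1238 and anterior gradient 2 779. Of 45 models on the keratinocyte and mucus list, 4 (8.89%, against 0.658% of all models) were called higher than each library. The sums were 608 FPKM in Olfactory_bulb against 312 in Telecephlon, 826 in Brain and 491 in Retina, with Brain highest. Without the model highest in the bulb (C0J45_14630, 290 FPKM there) the sums were 319 in Olfactory_bulb, 173 in Telecephlon, 308 in Brain and 169 in Retina. Of the 45 models, 21 (46.7%, against 29.9% of all models) were highest in Olfactory_bulb. Only 15 of the 45 reached 5 FPKM in any neural library, so some of these ranks are among low values. The part of adhering epithelium in these calls was not tested.

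Some leading genes belong to none of these groups. Obscurin, a giant protein of the muscle sarcomere, had high models C0J45_15717 at 44.1 FPKM in Olfactory_bulb against 0.253 in Telecephlon, 0.284 in Brain and 0.355 in Retina and C0J45_15854 at 30.1 FPKM in Olfactory_bulb against 0.359 in Telecephlon, 0.330 in Brain and 0.195 in Retina. Of 54 skeletal muscle models 1 was called higher than each (1.85%, against 0.658% of all models). It was a parvalbumin (C0J45_13044) at 7.12 FPKM in Olfactory_bulb against 0.312 in Telecephlon, 0.356 in Brain and 0.0559 in Retina. A FERM domain-containing protein 7-like model, of a family that links membrane to actin, was 59.1 FPKM in Olfactory_bulb against 0.346 in Telecephlon, 0.167 in Brain and 1.45 in Retina. A ladderlectin-like model, a secreted lectin of fish mucosa, was 52.3 FPKM in Olfactory_bulb against 1.10 in Telecephlon, 0.148 in Brain and 1.004 in Retina, and Gill had 549. The 5 highest named models in the library were ependymin at 11907 FPKM, cytochrome oxidase subunits I and II at 8201 and 5286, apolipoprotein Eb at 3299 and NADH dehydrogenase subunit 3 at 3189.6.

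Of the 167 models, 97 had their highest level among all 18 tissues in Olfactory_bulb and 70 elsewhere. The rule keeps Brain, Telecephlon and Retina from being highest for a called model, so only the 14 non-neural tissues could exceed Olfactory_bulb. The share over all models was not computed, so these counts have no baseline. Of the 97, 60 stayed below 5 FPKM in all 14 non-neural tissues and 34 below 1 FPKM, among them synaptoporin, whose highest other level was 0.0332 FPKM, and cortistatin, at 0.224. Of the 70, 17 peaked in Intestine, 16 in Gill, 11 in Head_kidney and 11 in the barbels, and Olfactory_bulb stood at a median of 24.7% of the peak. Antibody and T-cell receptor chains made up 18 of the 70.

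**Figure D5:**
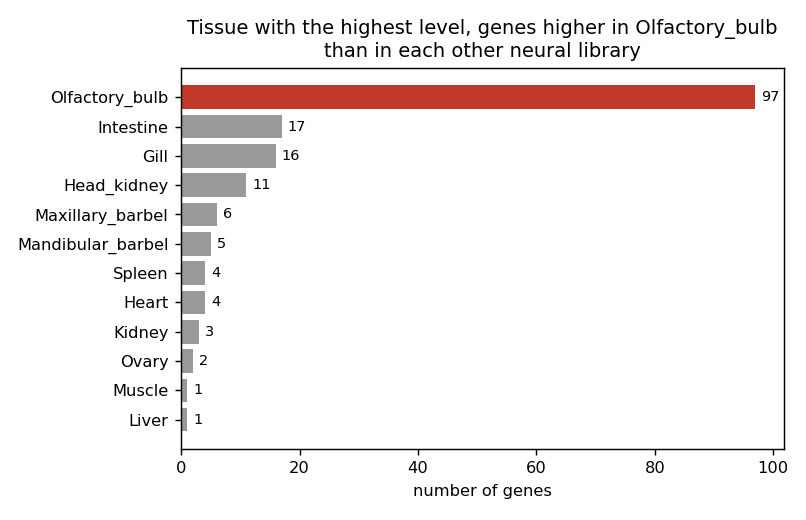
Number of the 167 gene models, called higher in Olfactory_bulb than in each other neural library, by the tissue in which each was highest among 18. Olfactory_bulb holds 97 (red bar), Intestine 17, Gill 16 and Head_kidney 11. By the rule, Brain, Telecephlon and Retina cannot be highest for these models.

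The libraries were alike in size of signal but not in every property. Summed FPKM was 468536 in Olfactory_bulb and between 457883 and 507002 in the others, the 10 highest models took 9.49% of it against 6.99 to 16.2%, and models listed at 0 numbered 2550 against 1537 in Brain, 2956 in Telecephlon and 3005 in Retina. Over the same 13745 models the median log2 difference of Olfactory_bulb was 0.16 from Brain, 0.04 from Telecephlon and 0.30 from Retina, shifts that are small beside the threshold of 2 but bear on list medians of that size.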

How the data were processed

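Poly(A) RNA libraries, 1 for each of 18 tissues, were deposited as a table of FPKM values per gene model, made by the authors; the submitters' processing notes name StringTie 1.3.4d. An aligner and a build were not given in the sources used here. Protein names, chromosomes and positions come from the authors' deposited annotation, joined by locus tag. The low values did not resolve into whole reads, since only 29.1 to 38.7% lay within 0.1 of a whole step, so depth is unknown, no count model was used and no counting interval is given. Without replicates the precision of each value is unknown.

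FPKM were compared as log2(FPKM + 1) between Olfactory_bulb and the highest, and the mean, of Brain, Telecephlon and Retina. A call needed a 4-fold ratio and at least 5 FPKM on the higher side, without a test. The code of the rule was tried on simulated data, with planted differences above the 4-fold threshold in genes of high level. Recovery there was largely set in advance, so it does not show how the rule performs near the 5 FPKM minimum. Marker lists, 28 in number with 1069 gene models, were matched by protein name, and 4 more were added after the values were seen. The genes, the lists and the comparison were chosen with earlier results of these data known. The names were drawn from the 20 called models with the largest ratio, the models lower than each, called list members, the first 4 genes of each list and the 5 highest models; others are said to be chosen after their values were seen, many that qualified are given by counts, and 1 is not reported here. Alternatives changed the pseudocount, minimum, fold, scaling, mean and the libraries compared. Analyses used Python 3.11.15, numpy 2.4.6, pandas 2.3.3, matplotlib 3.10.9.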

Additional observations from a re-analysis of the deposited data

How the results depend on the processing

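No paired analysis was possible because each tissue has 1 library. Of the 167 models higher than each library, a smaller pseudocount or fewer libraries can lose none by construction; 151 stayed called after upper quartile scaling, 150 after centring each ratio, 136 at a minimum of 10 FPKM, and 64 at 8-fold; leaving out Telecephlon gave 363 calls. The 7 lower models became 12 with a pseudocount of 0.1, 11 at a minimum of 1 FPKM or none, 4 at 10, 1 at 8-fold, 13 by upper quartile, 42 without Brain, 35 without Retina and 46 without Telecephlon. The next settings were chosen after the data were seen. Leaving out antibody and T-cell receptor models left 144 of the 167. Centring the differences from the highest, lowest and mean library each on their own median, a first version of the centring above, which was redefined after its counts were seen, gave 213 higher than each and 14 lower. The 373 higher than the mean became 563 with a pseudocount of 0.1, 118 at 8-fold and 613 without Telecephlon. The 175 lower than the mean became 95 at 10 FPKM, 60 at 8-fold, 331 without Brain, 362 without Telecephlon and 524 against the arithmetic mean.

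The interneuron median of 0.91 became 1.39 with a pseudocount of 0.1, 2.37 with 1 model per symbol and 1.58 as a list mean. Medians changed sign for dopaminergic neurons (-0.018 without Brain, -0.048 without Telecephlon, -0.20 against the arithmetic mean), mitral and tufted cells (-0.10 without Brain, -0.11 without Retina, -0.64 against the arithmetic mean, -0.23 as a list mean), myelin (0.35 without Brain), synaptic vesicles (-0.10 without Retina), glutamate receptors (-0.090 without Retina), GABA and glycine receptors (0.52 without Telecephlon), cartilage (0.20 as a list mean) and choroid plexus (-0.023 after centring). The causes were not tested beyond the construction of each setting: fewer libraries, a stricter threshold or a wider one. Unknown depth limits statements on low levels and on models listed at 0.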

Other observations

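The genes in this section were chosen after their values were seen. Some further peptide precursors and receptors were highest in the bulb, while other copies were not. Neuropeptide B, which acts on 2 G protein-coupled receptors in mammals, was 364 FPKM in Olfactory_bulb against 43.3 in Telecephlon, 14.4 in Brain and 42.8 in Retina, a log2 difference of 3.04 from the next library. Urocortin-3 (C0J45_16084), a peptide of the corticotropin-releasing family, was 49.1 FPKM in Olfactory_bulb against 2.12 in Telecephlon, 0.294 in Brain and 4.66 in Retina, 3.15 above Retina. The other urocortin-3 model (C0J45_00607) was 0.316 FPKM in Olfactory_bulb against 0.175 in Telecephlon, 1.13 in Brain and 0 in Retina, and urocortin (C0J45_16477) was listed at 0 in Olfactory_bulb against 14.9 FPKM in Brain. The corticotropin-releasing factor receptor 1 models passed no threshold, and the related receptor 2 (C0J45_09136) was 22.1 FPKM in Olfactory_bulb against 5.33 in Telecephlon, 2.48 in Brain and 1.11 in Retina. A thyrotropin-releasing hormone receptor-like model (C0J45_15664) was 9.85 FPKM in Olfactory_bulb against 0.590 in Telecephlon, 1.05 in Brain and 0.218 in Retina, whereas receptor b (C0J45_19557) was 0.634 FPKM in Olfactory_bulb against 12.98 in Telecephlon, 1.57 in Brain and 0.0266 in Retina, with Telecephlon highest. A further model (C0J45_04316) passed no threshold. Neuropeptide FF receptor 2a was 10.8 FPKM in Olfactory_bulb against 0.581 in Telecephlon, 0.277 in Brain and 0.0361 in Retina, and the delta 1b opioid receptor was 5.95 FPKM in Olfactory_bulb against 0.356 in Telecephlon, 0.256 in Brain and 0.252 in Retina. Both of these were called higher than each other neural library.

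Proteins of transmitter release and excitability outside the lists were also called. Of 19 synaptotagmin models 2 were called higher than each, against 0.658% of all models. Synaptotagmin-6 (C0J45_14854) was 62.6 FPKM in Olfactory_bulb against 3.47 in Telecephlon, 4.11 in Brain and 2.10 in Retina and synaptotagmin-10 was 62 FPKM in Olfactory_bulb against 4.42 in Telecephlon, 1.39 in Brain and 2.18 in Retina; both are calcium sensors of vesicle fusion, and the second acts in release of growth factor from bulb mitral cells in mice. The other synaptotagmin-6 model (C0J45_17151) was 0.233 FPKM in Olfactory_bulb against 6.04 in Telecephlon, 0.704 in Brain and 0.628 in Retina, with Telecephlon highest. The potassium channel subunit beta-1 (C0J45_12020) was 96.5 FPKM in Olfactory_bulb against 5.91 in Telecephlon, 6.02 in Brain and 3.84 in Retina. The glutamate receptor-interacting protein 1, a scaffold for AMPA receptors, was 98.6 FPKM in Olfactory_bulb against 6.04 in Telecephlon, 6.83 in Brain and 6.30 in Retina. The R-type calcium channel subunit (C0J45_15830) was 80.1 FPKM in Olfactory_bulb against 15.98 in Telecephlon, 3.34 in Brain and 0.791 in Retina, and ERC protein 2 of the release site was 63.99 FPKM in Olfactory_bulb against 9.36 in Telecephlon, 1.32 in Brain and 2.29 in Retina. These 6 models were called higher than each other neural library, so a gap of at least 4-fold follows from the rule. A second R-type subunit (C0J45_24721) was also called higher than each, at 11.95 FPKM in Olfactory_bulb against 1.79 in Telecephlon, 0.883 in Brain and 0 in Retina. Other copies were highest in Telecephlon. A potassium channel subunit beta-1 (C0J45_17779) was 8.47 FPKM in Olfactory_bulb against 26.4 in Telecephlon, 10.8 in Brain and 5.68 in Retina. An R-type subunit (C0J45_06635) was 1.97 FPKM in Olfactory_bulb against 32.4 in Telecephlon, 2.34 in Brain and 0.405 in Retina. An ERC protein 2 (C0J45_17338) was 11.97 FPKM in Olfactory_bulb against 18.02 in Telecephlon, 6.49 in Brain and 1.68 in Retina.

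Anosmin 1b, a matrix protein whose human relative is altered in a syndrome with loss of smell, was 98.4 FPKM in Olfactory_bulb against 0.4999 in Telecephlon, 2.80 in Brain and 26.3 in Retina; it passed 4-fold against Brain and Telecephlon and not against Retina. Pax-6, which marks dopaminergic bulb interneurons in mice, was 24.3 FPKM in Olfactory_bulb against 4.36 in Telecephlon, 5.16 in Brain and 53.3 in Retina, so Retina was highest. The homeobox partner PBX3 had models at 56.5 FPKM in Olfactory_bulb against 6.12 in Telecephlon, 7.97 in Brain and 3.30 in Retina (C0J45_15362) and 28.8 FPKM in Olfactory_bulb against 4.04 in Telecephlon, 4.67 in Brain and 1.91 in Retina (C0J45_15357). Low beside both Brain and Telecephlon were cerebellin-1 (C0J45_12255) at 5.07 FPKM in Olfactory_bulb against 37.9 in Telecephlon, 32.8 in Brain and 2.92 in Retina, and cerebellin-2 at 3.10 FPKM in Olfactory_bulb against 36.1 in Telecephlon, 18.9 in Brain and 6.90 in Retina, secreted organizers of synapses.

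Called models often lay side by side. Of the 167, 37 fell into 15 runs with at most 1 uncalled model between members, and 3 runs held 3 or more. The longest by number was on chromosome 5, from 7772231 to 7825430, with 5 models: an ES1 homolog (86.1 FPKM in Olfactory_bulb against 5.67 in Telecephlon, 4.13 in Brain and 13.03 in Retina), an immunoresponsive gene 1-like model (11.3 FPKM in Olfactory_bulb against 0.1004 in Telecephlon, 0.0139 in Brain and 0.0305 in Retina) and hypothetical proteins. Dlx2a and Dlx1a formed a pair on chromosome 3, and Dlx5a and Dlx6a a pair on chromosome 22, the paired arrangement known for these genes in vertebrates. No comparison with chance was made.

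Receptor families were mixed. Among 5 opioid receptor models, the other 4 were highest in Telecephlon. Of 8 somatostatin receptor models, type 1 (C0J45_08061) was 10.5 FPKM in Olfactory_bulb against 4.96 in Telecephlon, 0.922 in Brain and 0.787 in Retina and was called higher than the mean, whereas a type 2-like model (C0J45_13240) was 0.0441 FPKM in Olfactory_bulb against 12.8 in Telecephlon, 0.658 in Brain and 0.201 in Retina. The type 5 models C0J45_00169, C0J45_13519 and C0J45_20504 were 0.359, 0.457 and 0.441 FPKM in Olfactory_bulb against 5.98, 5.78 and 6.01 in Telecephlon.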
